A study of Mus musculus with 13 samples.

Results

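Genes of 2 cell types of the renal glomerulus and its vessels were followed in RNA captured from mouse kidney: 12 genes used as markers of podocytes and 20 used as markers of endothelial cells. These 32 genes were found by their symbols in a table of 35013 gene symbols, and the podocyte and endothelial sets are described apart. All 32 were present and all 32 passed the filter on low counts that left 16468 genes for testing, with 30 to 26682 estimated counts in a library. The 13 libraries came from kidneys of female C57Bl6 mice, with 4 labelled as Spns1 KO, 5 as WT and 4 as iron overload (FeO). Spns1 encodes a lysosomal membrane transporter. According to the methods, Spns1 KO mice were Megalin3'Cre-Ert with both Spns1 alleles floxed and a floxed Uprt allele. WT mice were littermates with the same Cre and Uprt alleles and a single floxed Spns1 allele, although the labels give their Spns1 genotype as WT. FeO mice had the genotype of the WT mice and received 12 mg of elemental iron as iron sucrose by intraperitoneal injection on each of 3 days, and their kidneys were taken 1 week after the iron. All groups carried the tamoxifen-dependent Cre, placed behind the megalin gene, which is active above all in proximal tubule, and all received tamoxifen. Ages were not given in the sources used here. Cre activates Uprt (uracil phosphoribosyltransferase), which lets a cell build injected 4-thiouracil into new RNA, and this tagged RNA was bound to streptavidin, enriched for poly-A transcripts and sequenced. The labels number the libraries without tying each to a mouse, so the p-values measure only the spread between these libraries, which may be technical.

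Podocytes wrap the glomerular capillaries with foot processes, and neighbouring processes are joined by the slit diaphragm, a junction built around nephrin. An actin cytoskeleton inside the foot processes and a strongly charged apical coat keep the slits open, and a few transcription factors hold the mature podocyte state. Kidney endothelial cells line fenestrated glomerular capillaries, peritubular capillaries whose fenestrae carry diaphragms, and larger vessels. They depend on vascular endothelial growth factor, much of it made by podocytes and tubules, and on the angiopoietin receptors. Several genes of both sets are not exclusive to these cells: Actn4 and Cd2ap are expressed in many epithelia, Tcf21 in interstitial fibroblasts, and Klf4 in epithelial cells.

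Depth ranged from 23068023 to 71296474 estimated counts per library (median 29981814), and levels are given as CPM, counts relative to the size of the library after scaling with edgeR's TMM factors. Spns1 itself lay between 36.6 and 58.95 CPM in the libraries labelled Spns1 KO and between 39.2 and 62.9 in WT, so the groups overlapped (log2 fold change -0.31, standard error or SE 0.18, edgeR adjusted p = 0.225). The count covers the whole gene, of which the floxed allele loses a single exon. Reads of that exon were not counted apart, and the cause of the overlap was not tested. The paper reports that Spns1 RNA and protein were lost from proximal tubules of the conditional knockout. The captured RNA was not that of proximal tubule alone: 20 proximal tubule markers, Pck1 and Slc34a1 among them, summed to 15357 to 24486 CPM in WT and 18 loop of Henle and distal nephron markers, led by Slc12a1, Slc12a3 and Umod, to 2768 to 5550.2 CPM, against 857 to 1213 CPM for the 12 podocyte genes and 400.1 to 488 CPM for the 20 endothelial genes. In FeO 1 the proximal tubule sum was the lowest of all libraries (9573 CPM), and in FeO 3 the highest (30529.8 CPM). WT 1 and WT 2 were closer to each other than any other pair of libraries of a group, with a mean chi-square per gene of 2.89 against 13.28 or more, which is still above sampling noise, and they were counted as separate libraries. Spns1 KO 4 stood apart from Spns1 KO 1 to 3, at 58.47 to 77.74, whereas those were at 13.28 to 15.62 from each other. Pairs of FeO libraries ran from 48.83 to 75.48. Since the samples are bulk, a lower or higher level cannot be told apart as fewer or more cells of a type or as less or more RNA per cell.

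Scaled to transcript length, WT levels spread widely within each set. Actn4, the actin cross-linker alpha-actinin-4, and Cd2ap, an adaptor between nephrin and actin, were the most abundant at 80.4 ± 6.75 and 56.3 ± 11.1 CPM per kb (SD, n = 5). Podxl followed at 26.8, Clic5 at 20.1 and Synpo at 7.43 CPM per kb. The other podocyte genes lay at 3.63 (Wt1) or lower, with Nphs1 at 2.29, Ptpro at 1.95 and Tcf21 lowest at 1.75 CPM per kb. Among endothelial genes Pecam1 (15.4), Emcn (13.02) and Esam (11.5 CPM per kb) led, and Cldn5 (1.27) and Vwf (0.4399 CPM per kb) were lowest. The leading values of Actn4 and Cd2ap were in genes that tubular cells also use, and the share of podocytes in them was not tested.

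In Spns1 KO, 3 of 12 rose against WT (Nphs1, Cdkn1c and Tcf21) and 0 fell, beside 14.0% of all tested genes upregulated and 7.55% downregulated. In FeO, 4 of 12 rose (Podxl, Ptpro, Synpo and Cdkn1c) and 1 fell (Magi2), beside 22.4% upregulated and 19.7% downregulated of all tested genes. A gene is called up- or downregulated when edgeR's quasi-likelihood test gave a Benjamini-Hochberg adjusted p under 0.05 and the log2 fold change lay beyond 0.5. The median log2 fold change of the 12 was 0.075 in Spns1 KO against -0.045 over all genes, and it was -0.065 against -0.177 when libraries were scaled by their totals only, so its sign depended on the scaling. In FeO the median was 0.45 against -0.011 over all genes, and it rested in part on single libraries, since it was 0.231 without FeO 1 and 0.215 without FeO 4. No podocyte gene was lower in Spns1 KO at an unadjusted p under 0.05 with edgeR, and DESeq2 and limma-voom also called 0 downregulated. Both comparisons use the same 5 WT libraries, and levels in every library are drawn in the plot of podocyte genes.

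**Figure D1:**
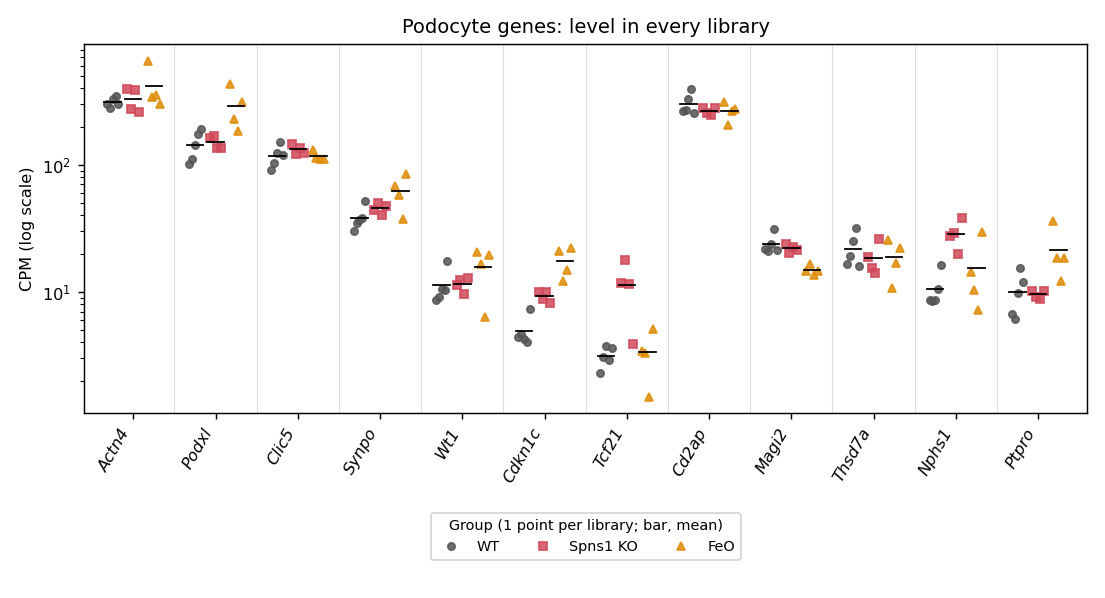
Level of each of the 12 podocyte genes in CPM (vertical log axis) in every library of WT, Spns1 KO and FeO, with 1 point per library and a bar at the group mean. Nphs1 lies at 20.04 to 38.2 CPM in Spns1 KO, above 8.47 to 16.4 in WT, and Cdkn1c lies above the WT range in every Spns1 KO and FeO library.

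Among slit diaphragm genes, Nphs1 (chromosome 7, 30458315 to 30487223 of GRCm38), which encodes nephrin, stood at 8.63, 8.47, 8.599, 10.6 and 16.4 CPM in WT 1 to 5 and at 27.3, 28.9, 20.04 and 38.2 CPM in Spns1 KO 1 to 4. In FeO 1 to 4 it was 14.2, 10.4, 7.22 and 29.5 CPM. Every Spns1 KO library lay above every WT library, whereas FeO overlapped WT and FeO 4 alone reached the Spns1 KO range. Nphs1 rose 2.72-fold in Spns1 KO, a log2 fold change of 1.44 (SE 0.34, edgeR adjusted p = 0.00762), and in FeO its log2 fold change was 0.54 (SE 0.34, edgeR adjusted p = 0.198). Words of 31 bases that other genes hold too made up 4.20% of its transcript sequence, and it overlaps Nphs1os on the opposite strand. Whether the counting used strand was not given in the sources used here, so reads of such partners cannot be told apart.

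Ptpro (chromosome 6, 137252319 to 137463233), a receptor-type tyrosine phosphatase of the podocyte surface, stood at 6.64, 6.07, 9.796, 15.4 and 11.9 CPM in WT and at 36.4, 18.4, 12.2 and 18.4 CPM in FeO. In Spns1 KO it was 10.1, 9.12, 8.85 and 10.1 CPM. FeO 1 was far above the rest, 3 of the 4 FeO libraries lay above the WT range, and all Spns1 KO libraries lay inside it. Ptpro rose 2.15-fold in FeO (log2 fold change 1.10 (SE 0.30, edgeR adjusted p = 0.00872)), and without FeO 1 the log2 fold change was 0.73, still called. Its log2 fold change in Spns1 KO was -0.06 (SE 0.30, edgeR adjusted p = 0.904).

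Magi2 (chromosome 5, 19227036 to 20704792), a scaffold protein that binds nephrin, moved the other way in FeO. It was 21.8, 20.98, 23.9, 31.2 and 21.5 CPM in WT, 23.9, 20.4, 22.6 and 21.4 in Spns1 KO, with 14.6, 16.6, 13.5 and 14.6 in FeO. All 4 FeO libraries lay below all 5 WT libraries and all 4 Spns1 KO libraries. Magi2 fell by 0.69 on the log2 scale in FeO (SE 0.15, edgeR adjusted p = 0.00221), while in Spns1 KO the log2 fold change was -0.11 (SE 0.15, edgeR adjusted p = 0.603). With a trend on transcript length and GC content removed from each library the FeO value was -0.21 and no longer called. Magi2 shares exonic sequence with Gm29254 on the same strand. The remaining genes of this group did not pass in either model: Cd2ap averaged 302 ± 59.5 CPM in WT (SD, n = 5), 265 ± 16.4 CPM in Spns1 KO and 264 ± 43.6 CPM in FeO (SD, n = 4 each), and 5.57% of its 31-base sequences occur in other genes. Thsd7a, a membrane protein of the foot process, averaged 21.7 ± 6.69 CPM in WT (SD, n = 5), 18.6 ± 5.36 CPM in Spns1 KO and 18.9 ± 6.56 CPM in FeO (SD, n = 4 each).

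In the foot process cytoskeleton and apical coat, Podxl (chromosome 6, 31519488 to 31563981), which encodes the sialylated coat protein podocalyxin that endothelial cells make as well, was 102, 111, 142, 175 and 190.0 CPM in WT and 430.4, 228, 186 and 312 CPM in FeO. In Spns1 KO it was 164, 168, 135 and 135 CPM, all inside the WT range. FeO 1 was the highest library, and FeO 3 was the 1 FeO library inside the WT range. Podxl rose 2.01-fold in FeO (log2 fold change 1.01 (SE 0.24, edgeR adjusted p = 0.00406)), against a log2 fold change of 0.06 (SE 0.24, edgeR adjusted p = 0.868) in Spns1 KO. Synpo, which encodes the actin-associated protein synaptopodin, was 30.1, 34.7, 36.9, 38.04 and 51.9 CPM in WT, 43.9, 49.9, 40.3 and 47.7 in Spns1 KO, with 68.4, 57.5, 37.5 and 85.3 in FeO. FeO 3 again lay inside the WT range and the other 3 FeO libraries above it. Synpo rose 1.62-fold in FeO (log2 fold change 0.70 (SE 0.21, edgeR adjusted p = 0.0131)), and its log2 fold change in Spns1 KO was 0.25 (SE 0.21, edgeR adjusted p = 0.397). Actn4 averaged 312 ± 26.2 CPM in WT (SD, n = 5), 331 ± 73.03 CPM in Spns1 KO and 414 ± 165 CPM in FeO (SD, n = 4 each), and its wide FeO spread came from FeO 1 at 659 CPM. Clic5, a chloride intracellular channel protein that binds ezrin, averaged 118 ± 22.3 CPM, 132 ± 11.7 CPM and 117 ± 9.54 CPM in the same order. Neither passed the test in either model.

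Among nuclear regulators, Cdkn1c (chromosome 7, 143458339 to 143461050) encodes the cyclin-dependent kinase inhibitor p57, which marks podocytes that have left the cell cycle. It was 4.44, 4.68, 4.22, 4.03 and 7.37 CPM in WT, 9.99, 8.71, 9.99 and 8.14 CPM in Spns1 KO and 21.02, 12.1, 14.8 and 22.04 CPM in FeO. Its groups did not overlap: every Spns1 KO library was above every WT library and every FeO library above every Spns1 KO library. Its log2 fold change was 0.90 (SE 0.22, edgeR adjusted p = 0.00942) in Spns1 KO and 1.82 (SE 0.22, edgeR adjusted p = 0.000313) in FeO. With that length and GC trend taken out the Spns1 KO value was 0.59 and not called, and the FeO value was 1.56 and called. Cdkn1c overlaps Gm44732 on the opposite strand. Tcf21 (chromosome 10, 22817281 to 22820174), a transcription factor of podocytes and interstitial fibroblasts, was 2.31, 3.08, 3.78, 2.897 and 3.59 CPM in WT and 11.8, 17.96, 11.6 and 3.87 CPM in Spns1 KO. In FeO it was 3.44, 3.28, 1.499 and 5.13 CPM. Spns1 KO 4 was just above the highest WT library, and the other 3 Spns1 KO libraries were far above it. Tcf21 rose 3.61-fold in Spns1 KO, with a log2 fold change of 1.85 (SE 0.37, edgeR adjusted p = 0.00317), against 0.09 (SE 0.38, edgeR adjusted p = 0.85) in FeO. Over the same groups 10 fibroblast markers, led by Cxcl12, Pdgfra and Col3a1, summed to 129 to 216 CPM in WT, 241 to 359.5 in Spns1 KO and 141 to 266 in FeO. Of these 10 markers, 6 rose in Spns1 KO and 1 in FeO, beside 14.0% and 22.4% of all tested genes. Their part in the Tcf21 value was not tested. Wt1, the Wilms tumour transcription factor, averaged 11.2 ± 3.63 CPM in WT (SD, n = 5), 11.5 ± 1.44 CPM in Spns1 KO and 15.7 ± 6.49 CPM in FeO (SD, n = 4 each) and did not pass in either model. Its FeO value was called upregulated without WT 5 or without FeO 3 (0.72 to 0.75, against 0.49 with all libraries).

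Of the endothelial genes, 7 of 20 rose in Spns1 KO (Plvap, Egfl7, Ramp2, Eng, Robo4, Tie1 and Emcn) and 0 fell, where 14.0% of all tested genes were upregulated and 7.55% downregulated. In FeO 5 of 20 rose (Cldn5, Emcn, Plvap, Esam and Eng) and 2 fell (Klf4 and Kdr), where 22.4% were upregulated and 19.7% downregulated. The median log2 fold change of the 20 was 0.425 in Spns1 KO against -0.045 over all genes. In FeO it was 0.038 against -0.011, and its sign was not stable, since it was -0.024 with limma-voom and -0.041 without FeO 4. With library totals as the only scaling, 4 endothelial genes rose in Spns1 KO and 3 in FeO. Without FeO 1, WT 1 or WT 2 the number that rose in FeO was 3, and the number that fell was 1 without FeO 3 and 4 without FeO 4. As in the podocyte set, 0 were lower in Spns1 KO at an unadjusted p under 0.05 with edgeR, and DESeq2 and limma-voom called 0 downregulated. Pecam1 and Cdh5 were called in neither model, whereas Eng, Egfl7, Emcn and Tie1 of the same set rose in Spns1 KO.

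**Figure D2:**
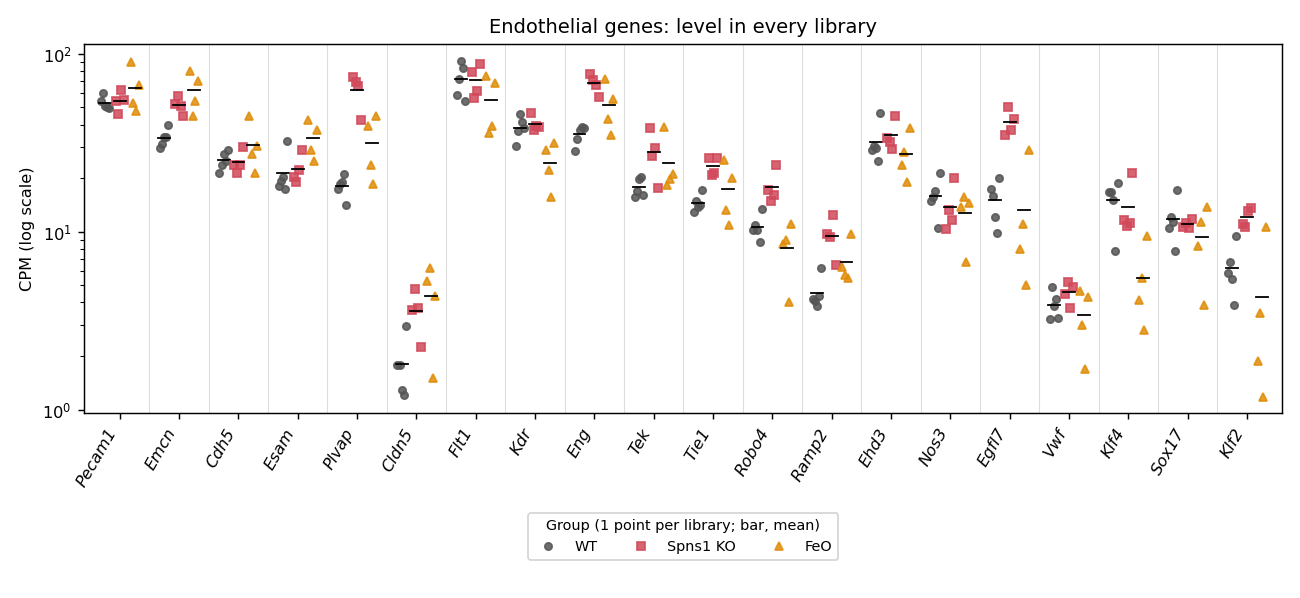
Level of each of the 20 endothelial genes in CPM (vertical log axis) in every library of WT, Spns1 KO and FeO, with 1 point per library and a bar at the group mean. Plvap lies at 42.7 to 74.3 CPM in Spns1 KO, above 14.2 to 21.2 in WT, while the groups overlap for Pecam1 and Cdh5.

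Endothelial promoters are often bound by ETS transcription factors, and a motif that they bind reads AGGAAG, or CTTCCT on the other strand. The promoters of 4 endothelial and 2 podocyte genes that rose in Spns1 KO are shown to let the window be read beside the values. Each is 300 bases of RefSeq sequence, from 250 before to 50 after the start, on GRCm38.p6: chr2:32646345-32646644 on the plus strand for Eng, chr3:137340828-137341127 on the plus strand for Emcn, chr4:118489800-118490099 on the minus strand for Tie1, chr9:37401722-37402021 on the plus strand for Robo4, chr7:30459808-30460107 on the plus strand for Nphs1 and chr10:22820094-22820393 on the minus strand for Tcf21. Capitals mark each match of this motif on either strand, and other sequences that ETS factors may bind are not marked.
Eng: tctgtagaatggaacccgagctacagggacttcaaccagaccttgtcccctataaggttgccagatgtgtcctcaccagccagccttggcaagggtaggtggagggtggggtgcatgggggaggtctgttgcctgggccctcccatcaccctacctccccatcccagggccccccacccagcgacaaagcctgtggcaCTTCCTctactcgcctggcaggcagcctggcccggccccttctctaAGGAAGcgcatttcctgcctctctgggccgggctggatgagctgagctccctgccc
Emcn: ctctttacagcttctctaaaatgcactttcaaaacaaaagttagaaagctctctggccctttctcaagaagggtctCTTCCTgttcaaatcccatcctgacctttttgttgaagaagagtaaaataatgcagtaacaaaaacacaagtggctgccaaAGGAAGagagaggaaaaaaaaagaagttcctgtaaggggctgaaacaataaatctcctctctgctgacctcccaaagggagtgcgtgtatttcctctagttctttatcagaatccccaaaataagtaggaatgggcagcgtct
Tie1: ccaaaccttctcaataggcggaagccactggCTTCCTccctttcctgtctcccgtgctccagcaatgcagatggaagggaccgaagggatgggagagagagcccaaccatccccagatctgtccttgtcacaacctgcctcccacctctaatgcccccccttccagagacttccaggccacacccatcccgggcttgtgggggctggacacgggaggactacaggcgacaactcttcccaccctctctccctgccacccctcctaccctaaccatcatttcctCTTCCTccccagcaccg
Robo4: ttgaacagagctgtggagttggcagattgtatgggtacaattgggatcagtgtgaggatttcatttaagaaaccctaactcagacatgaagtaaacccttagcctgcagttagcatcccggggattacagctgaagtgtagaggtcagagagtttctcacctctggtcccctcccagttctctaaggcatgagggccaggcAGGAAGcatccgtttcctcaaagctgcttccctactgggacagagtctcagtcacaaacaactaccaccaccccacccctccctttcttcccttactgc
Nphs1: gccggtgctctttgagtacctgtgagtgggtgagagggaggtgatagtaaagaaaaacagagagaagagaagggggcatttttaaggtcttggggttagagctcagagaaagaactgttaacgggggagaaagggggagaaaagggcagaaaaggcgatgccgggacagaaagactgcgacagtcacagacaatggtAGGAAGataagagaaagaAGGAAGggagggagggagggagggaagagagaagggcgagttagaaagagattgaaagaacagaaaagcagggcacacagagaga
Tcf21: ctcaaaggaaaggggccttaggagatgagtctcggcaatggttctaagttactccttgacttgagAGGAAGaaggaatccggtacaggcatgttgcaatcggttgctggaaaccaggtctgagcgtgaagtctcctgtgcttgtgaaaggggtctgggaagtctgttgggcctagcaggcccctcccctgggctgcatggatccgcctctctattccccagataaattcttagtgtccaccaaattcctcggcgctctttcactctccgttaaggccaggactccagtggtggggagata

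The motif occurred 2 times in the promoter of Eng, 2 in Emcn, 2 in Tie1, 2 in Nphs1, and 1 time each in Robo4 and Tcf21. The promoters of Egfl7, which also rose in Spns1 KO, held 3, 2 and 0 matches and are not shown. Among genes not called in Spns1 KO, the motif occurred 2 times in Flt1, 1 time each in Ehd3 and Ptpro, and 1 and 0 times in the promoters of Magi2. It occurred 0 times in Kdr, Tek, Klf2, Klf4, Cldn5, Actn4, Cd2ap, Clic5 and Thsd7a. RefSeq promoters were matched for 12 of the 20 endothelial and 8 of the 12 podocyte genes. At least 1 match was held by 8 of 14 endothelial promoters (57.1%) and 4 of 9 podocyte promoters (44.4%), beside 11613 of 32851 promoters of all genes (35.4%). A match describes letters in a window and is not a bound site, and its relation to the rise in Spns1 KO was not tested.

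Among junction and surface proteins, Plvap (chromosome 8, 71497765 to 71511752), which forms the diaphragms of fenestrae in peritubular capillaries, was 17.4, 18.6, 19.1, 21.2 and 14.2 CPM in WT and 74.3, 69.4, 65.7 and 42.7 CPM in Spns1 KO. In FeO it was 39.4, 23.7, 18.5 and 44.8 CPM. Every Spns1 KO library was above every WT library, and FeO 1, 2 and 4 were above the WT range with FeO 3 inside it. Plvap rose 3.48-fold in Spns1 KO, the lowest adjusted p of the 32 genes in that comparison, with a log2 fold change of 1.80 (SE 0.24, edgeR adjusted p = 0.000401). In FeO it rose 1.75-fold, with a log2 fold change of 0.80 (SE 0.24, edgeR adjusted p = 0.0136), which was 0.52 and not called with that length and GC trend taken out. Emcn (chromosome 3, 137341067 to 137432185), which encodes endomucin, a sialomucin of capillary and venous endothelium, was 29.4, 31.1, 34.2, 34.02 and 39.8 CPM in WT, 52.1, 58.3, 50.8 and 44.8 in Spns1 KO, with 80.6, 44.8, 54.04 and 70.4 in FeO. All Spns1 KO and all FeO libraries were above all WT libraries. Its log2 fold change was 0.61 (SE 0.17, edgeR adjusted p = 0.0166) in Spns1 KO and 0.89 (SE 0.17, edgeR adjusted p = 0.000973) in FeO. The Spns1 KO call was lost without Spns1 KO 2, at 0.55, and with library totals only, at 0.48.

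Cldn5 (chromosome 16, 18776847 to 18778262), the tight junction protein claudin-5, was 1.77, 1.79, 1.29, 1.201 and 2.93 CPM in WT, 3.65, 4.76, 3.71 and 2.24 in Spns1 KO, with 5.31, 6.23, 1.499 and 4.35 in FeO. FeO 3 and Spns1 KO 4 lay inside the WT range and the other libraries of both groups above it. Cldn5 rose 2.43-fold in FeO (log2 fold change 1.28 (SE 0.37, edgeR adjusted p = 0.0116)), and in Spns1 KO its log2 fold change of 1.00 (SE 0.37, edgeR adjusted p = 0.0593) missed the limit. That value was called with DESeq2 (1.01), in a fit of Spns1 KO and WT alone (1.02) and without Spns1 KO 4, WT 5 or FeO 3 (1.00 to 1.26). Esam (chromosome 9, 37528078 to 37538319), an endothelial cell adhesion molecule, was 17.97, 19.2, 20.2, 17.4 and 32.5 CPM in WT and 42.6, 28.9, 25.01 and 37.6 CPM in FeO. WT 5 was well above the other WT libraries and reached into the FeO values. Esam rose 1.56-fold in FeO (log2 fold change 0.64 (SE 0.21, edgeR adjusted p = 0.0228)). That call was lost without WT 1, WT 2 or FeO 1, with values of 0.52 to 0.60, with WT 1 and WT 2 summed (0.59), with library totals only (0.59) and with that length and GC trend taken out (0.35). In Spns1 KO, Esam averaged 22.6 ± 4.32 CPM (SD, n = 4), with a log2 fold change of 0.08 (SE 0.21, edgeR adjusted p = 0.816). Pecam1, the adhesion molecule CD31, averaged 53.1 ± 4.43 CPM in WT (SD, n = 5), 54.5 ± 7.01 CPM in Spns1 KO and 64.5 ± 18.9 CPM in FeO (SD, n = 4 each). Its log2 fold change was 0.04 (SE 0.17, edgeR adjusted p = 0.896) in Spns1 KO, and for Cdh5, which encodes VE-cadherin, it was -0.03 (SE 0.19, edgeR adjusted p = 0.926).

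Among receptors, Eng (chromosome 2, 32646595 to 32682669), which encodes endoglin, a co-receptor for bone morphogenetic proteins, was 28.4, 33.4, 37.3, 38.998 and 38.3 CPM in WT and 76.9, 71.8, 67.03 and 57.3 CPM in Spns1 KO. In FeO it was 71.8, 42.96, 35.03 and 55.4 CPM. The Spns1 KO and WT libraries did not overlap, and FeO 3 was the 1 FeO library inside the WT range. Eng rose 1.93-fold in Spns1 KO with a log2 fold change of 0.95 (SE 0.19, edgeR adjusted p = 0.00263). In FeO the log2 fold change was 0.54 (SE 0.19, edgeR adjusted p = 0.0274), and the call was lost without WT 1, WT 2 or FeO 1, at 0.35 to 0.52, with WT 1 and WT 2 summed, at 0.49, and with library totals only, at 0.50. Eng overlaps Fpgs on the opposite strand. Tie1 (chromosome 4, 118471191 to 118490061), an angiopoietin co-receptor, was 12.99, 14.9, 13.7, 14.1 and 17.1 CPM in WT, 25.8, 20.9, 21.3 and 26.1 in Spns1 KO, with 25.5, 13.2, 10.9 and 19.9 in FeO. Every Spns1 KO library was above every WT library, and Tie1 rose 1.61-fold (log2 fold change 0.69 (SE 0.21, edgeR adjusted p = 0.0284)). The call was lost without Spns1 KO 1, Spns1 KO 3, WT 1, WT 2 or WT 3, with values of 0.64 to 0.74, with WT 1 and WT 2 summed (0.67) and with library totals only (0.55).

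Robo4 (chromosome 9, 37401897 to 37415115), an endothelial roundabout receptor, was 10.2, 10.9, 10.3, 8.73 and 13.4 CPM in WT, 17.2, 14.96, 15.998 and 23.7 in Spns1 KO, with 8.53, 8.99, 4.02 and 11.02 in FeO. Its Spns1 KO libraries lay above all WT and all FeO libraries. Robo4 rose 1.68-fold in Spns1 KO (log2 fold change 0.75 (SE 0.24, edgeR adjusted p = 0.0346)). This call was close to the limit: it was lost without any 1 of the 4 Spns1 KO libraries or WT 1 to 4 (0.59 to 0.83), with WT 1 and WT 2 summed (0.74) and with library totals only (0.61). Ramp2 (chromosome 11, 101246028 to 101259546), the partner of the adrenomedullin receptor, was 4.19, 4.098, 3.81, 4.34 and 6.25 CPM in WT, 9.703, 9.39, 12.5 and 6.49 in Spns1 KO, with 6.295, 5.68, 5.52 and 9.71 in FeO. All Spns1 KO libraries lay above all WT libraries, with Spns1 KO 4 close to WT 5. Ramp2 rose 2.10-fold in Spns1 KO (log2 fold change 1.07 (SE 0.23, edgeR adjusted p = 0.00509)), which was 0.50 and not called with that length and GC trend taken out. Its count is uncertain, because 31.7% of its 31-base sequences are shared with other genes, chiefly Vps25, which overlaps it on the same strand. In FeO its log2 fold change was 0.58 (SE 0.23, edgeR adjusted p = 0.0529), and it was called with DESeq2 (0.60), with no filter on low counts (0.65) and without Spns1 KO 3, Spns1 KO 4, WT 5, FeO 2 or FeO 3 (0.58 to 0.74).

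The vascular endothelial growth factor receptors did not rise in either model. Kdr (chromosome 5, 75932827 to 75978458), the main signalling receptor VEGFR2, was 30.4, 36.7, 45.99, 41.2 and 38.1 CPM in WT, 46.5, 37.1, 39.5 and 38.9 in Spns1 KO, with 28.8, 22.2, 15.6 and 31.5 in FeO. All FeO libraries lay below all Spns1 KO libraries, and FeO 4 alone was inside the WT range. Kdr fell by 0.65 on the log2 scale in FeO (SE 0.19, edgeR adjusted p = 0.0123), against 0.07 (SE 0.19, edgeR adjusted p = 0.798) in Spns1 KO. The FeO call was lost without FeO 3, at -0.49, and with that length and GC trend taken out, at -0.22. Flt1, the VEGFR1 gene, averaged 71.96 ± 15.7 CPM in WT (SD, n = 5), 71.6 ± 14.6 CPM in Spns1 KO and 54.7 ± 19.9 CPM in FeO (SD, n = 4 each), and it passed in neither. Tek, which encodes the angiopoietin receptor Tie2, was 15.8, 17.01, 19.7, 20.3 and 16.02 CPM in WT and 38.4, 26.6, 29.6 and 17.6 CPM in Spns1 KO, with a log2 fold change of 0.66 (SE 0.24, edgeR adjusted p = 0.055) that missed the limit. It was called with DESeq2 (0.66), with no filter on low counts (0.72), in a fit of Spns1 KO and WT alone (0.68), with that length and GC trend taken out (0.90) and without Spns1 KO 4, FeO 1 or FeO 2 (0.68 to 0.83). In FeO it was 38.7, 18.2, 19.9 and 21.1 CPM, with FeO 1 far above the other libraries, and its log2 fold change of 0.46 (SE 0.24, edgeR adjusted p = 0.123) was called only with that trend taken out (0.77).

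Of the secreted proteins and enzymes, Egfl7 (chromosome 2, 26580014 to 26593120), a matrix protein of vessel walls, was 17.3, 15.8, 12.2, 9.82 and 19.96 CPM in WT, 35.2, 49.99, 37.4 and 43.3 in Spns1 KO, with 8.03, 11.1, 5.05 and 28.9 in FeO. Every Spns1 KO library was above every WT and every FeO library, and FeO ran from below to above the WT range. Egfl7 rose 2.76-fold in Spns1 KO (log2 fold change 1.47 (SE 0.37, edgeR adjusted p = 0.0115)), while the FeO value was -0.18 (SE 0.37, edgeR adjusted p = 0.714). The FeO value rested on single libraries: without FeO 4 it was -0.87 and called downregulated, and without FeO 3 it was 0.09. The gene hosts Mir126a and overlaps Agpat2 on the opposite strand and Gm20532 on the same strand. It shares 6.62% of its 31-base sequences with other genes, Gm20532 most of all. Nos3, endothelial nitric oxide synthase, averaged 15.9 ± 3.89 CPM in WT (SD, n = 5), 13.8 ± 4.25 CPM in Spns1 KO and 12.7 ± 4.03 CPM in FeO (SD, n = 4 each), and overlaps Atg9b on the opposite strand. Ehd3, a membrane-trafficking protein enriched in glomerular endothelium, averaged 32.01 ± 8.23 CPM, 34.9 ± 6.86 CPM and 27.3 ± 8.21 CPM in the same order. Vwf, von Willebrand factor, averaged 3.89 ± 0.687 CPM, 4.58 ± 0.641 CPM and 3.402 ± 1.34 CPM. None of these 3 genes passed in either model.

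Among transcription factors, Klf4 (chromosome 4, 55527143 to 55532466), a Krüppel-like factor that responds to flow in endothelium and is also made by epithelial cells, was 16.7, 16.8, 14.99, 7.84 and 18.7 CPM in WT, 11.6, 10.8, 11.2 and 21.5 in Spns1 KO, with 4.13, 5.52, 2.801 and 9.52 in FeO. WT 4 was the lowest WT library and Spns1 KO 4 the highest library of all, and 3 of the 4 FeO libraries lay below the WT range. Klf4 fell by 1.45 on the log2 scale in FeO (SE 0.34, edgeR adjusted p = 0.00387), and in Spns1 KO its value was -0.13 (SE 0.33, edgeR adjusted p = 0.802). Klf2, a related flow-responsive factor, was 5.88, 6.78, 5.42, 3.89 and 9.46 CPM in WT, 11.0, 10.6, 13.03 and 13.7 in Spns1 KO, with 1.87, 3.47, 1.18 and 10.6 in FeO. The Spns1 KO libraries lay above all WT libraries, whereas in FeO 3 libraries lay below the WT range and FeO 4 above it. Neither shift passed, with 0.94 (SE 0.45, edgeR adjusted p = 0.141) in Spns1 KO and -0.55 (SE 0.47, edgeR adjusted p = 0.344) in FeO. Without FeO 4 both were called, at 0.96 and -1.496, and the Spns1 KO value was also called in a fit of Spns1 KO and WT alone (0.96). Sox17, a factor of arterial endothelium, averaged 11.8 ± 3.43 CPM in WT (SD, n = 5), 11.03 ± 0.567 CPM in Spns1 KO and 9.3003 ± 4.25 CPM in FeO (SD, n = 4 each), and it overlaps Gm37587 on the opposite strand.

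**Figure D3:**
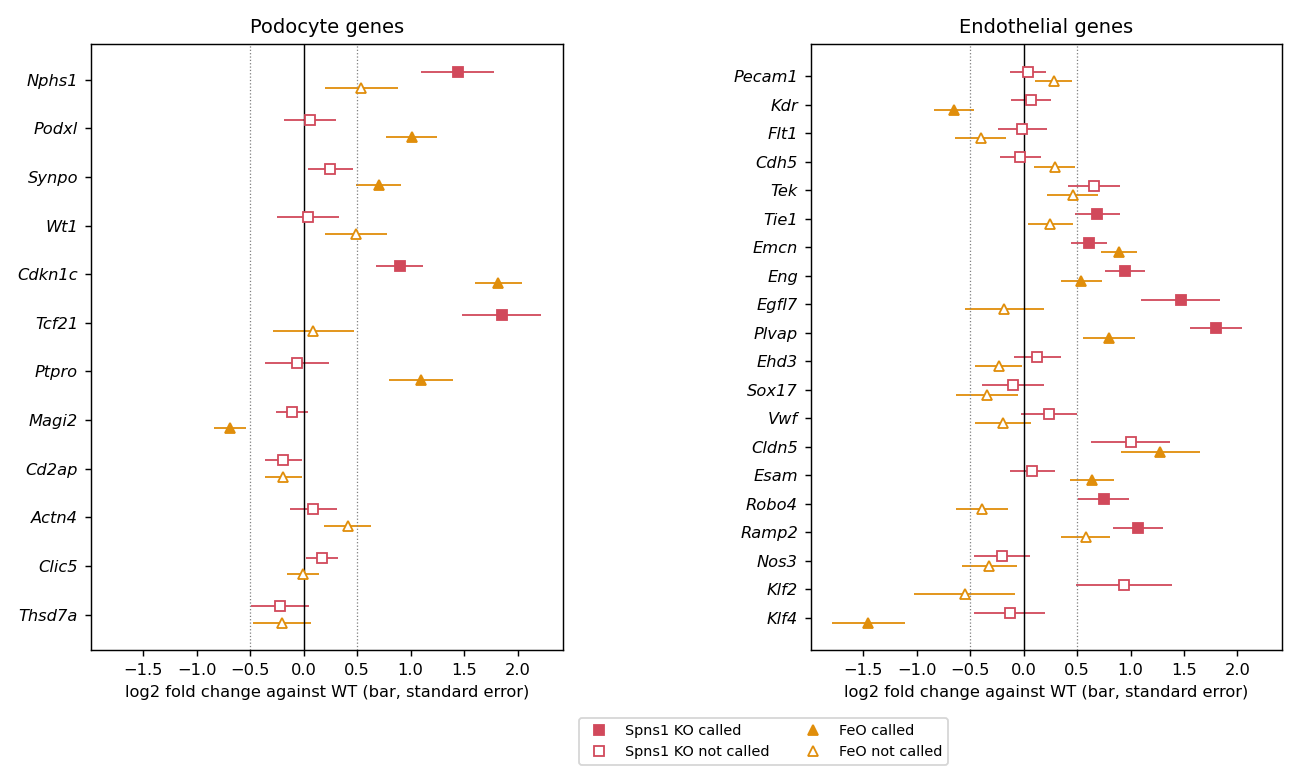
Log2 fold change against WT of the 12 podocyte genes (left) and the 20 endothelial genes (right) in Spns1 KO (squares) and FeO (triangles), with bars of 1 standard error, filled symbols for genes called and dotted lines at 0.5 in either direction. Nphs1, Tcf21 and Egfl7 are filled for Spns1 KO and open for FeO, Klf4 and Magi2 are filled below 0 for FeO, and Cdkn1c and Emcn are filled above 0 for both.

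Spns1 KO and FeO were also compared with each other within the fit of all 3 groups, in which the WT libraries help to set the spread, to test the differences between the models. Of the 32 genes, 7 were higher in Spns1 KO and 3 lower, beside 6.76% and 8.10% of all tested genes. Tcf21 (1.76 (SE 0.40, edgeR adjusted p = 0.0115)), Egfl7 (1.64 (SE 0.40, edgeR adjusted p = 0.0153)) and Robo4 (1.14 (SE 0.26, edgeR adjusted p = 0.0113)) had log2 differences above 1 in favour of Spns1 KO. Klf4 was higher by 1.32 (SE 0.35, edgeR adjusted p = 0.0231), Plvap by 1.00 (SE 0.25, edgeR adjusted p = 0.0182), Kdr by 0.72 (SE 0.20, edgeR adjusted p = 0.0255) and Magi2 by 0.58 (SE 0.15, edgeR adjusted p = 0.0235) on the log2 scale. Ptpro (-1.16 (SE 0.32, edgeR adjusted p = 0.0267)), Podxl (-0.94 (SE 0.26, edgeR adjusted p = 0.0248)) and Cdkn1c (-0.93 (SE 0.23, edgeR adjusted p = 0.0165)) were lower in Spns1 KO than in FeO. The difference in Nphs1, at 0.90 (SE 0.36, edgeR adjusted p = 0.0959), did not pass, and neither did that in Eng, at 0.41 (SE 0.20, edgeR adjusted p = 0.157), in Emcn, at -0.28 (SE 0.18, edgeR adjusted p = 0.284), in Synpo, at -0.45 (SE 0.22, edgeR adjusted p = 0.162), or in Klf2, at 1.49 (SE 0.49, edgeR adjusted p = 0.0512). Some of these were called under alternatives: Nphs1 without FeO 4 (1.43) and with limma-voom (1.07), Eng without FeO 1 (0.62), Synpo without FeO 3 (-0.63) and with the length and GC trend taken out (-0.66), and Klf2 without FeO 4 (2.46), without WT 4 (1.503), with DESeq2 (1.497) and with limma-voom (1.98). Leaving out single libraries ended several of the 10 calls: Podxl without Spns1 KO 3, Spns1 KO 4 or FeO 1 (-0.90 to -0.68), Ptpro without Spns1 KO 1, 2 or 3 or FeO 1 (-1.19 to -0.77) and Cdkn1c without FeO 1 (-0.82). The same held for Magi2 without Spns1 KO 1, FeO 1 or FeO 3 (0.53 to 0.57), Kdr without Spns1 KO 1 or FeO 3 (0.56 to 0.65), Plvap without Spns1 KO 1 (0.91) and Klf4 without Spns1 KO 4, FeO 1 or FeO 3 (1.03 to 1.22). Only Tcf21 and Robo4 kept their call under every alternative tried. The count of 10 was 6 without Spns1 KO 1 or without FeO 1, and 4 when the fit held just these 8 libraries, without WT. Calls over all genes fell as well, from 1113 higher and 1334 lower in Spns1 KO with all libraries. They were 615 and 787 without Spns1 KO 1, 545 and 636 without FeO 1, and 441 and 599 in the fit of 8 libraries.

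Transcript length moved with the results. Members under 2000 bases were 2 of 12 podocyte genes (Tcf21 and Cdkn1c) and 6 of 20 endothelial genes (Egfl7, Ramp2, Cldn5, Esam, Plvap and Klf2). Over all tested genes with a known length, the median log2 fold change in Spns1 KO was 0.36 under 2000 bases and -0.15 at or above it. In the endothelial set it was 1.03 for the short and 0.10 for the long members, which became 0.57 and 0.33 with the trend removed. In FeO the short and long endothelial members had medians of 0.61 and -0.21, which became 0.22 and 0.23. Over all tested genes with a known length the FeO medians were close to these, at 0.57 and -0.16, and became 0.19 and 0.04. Plvap, Egfl7 and Tcf21 kept their Spns1 KO calls without the trend, at 1.45, 1.03 and 1.63, and among longer genes Nphs1 and Eng stood at 1.49 and 0.90. In FeO, Podxl and Ptpro moved up to 1.34 and 1.43.

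**Figure D4:**
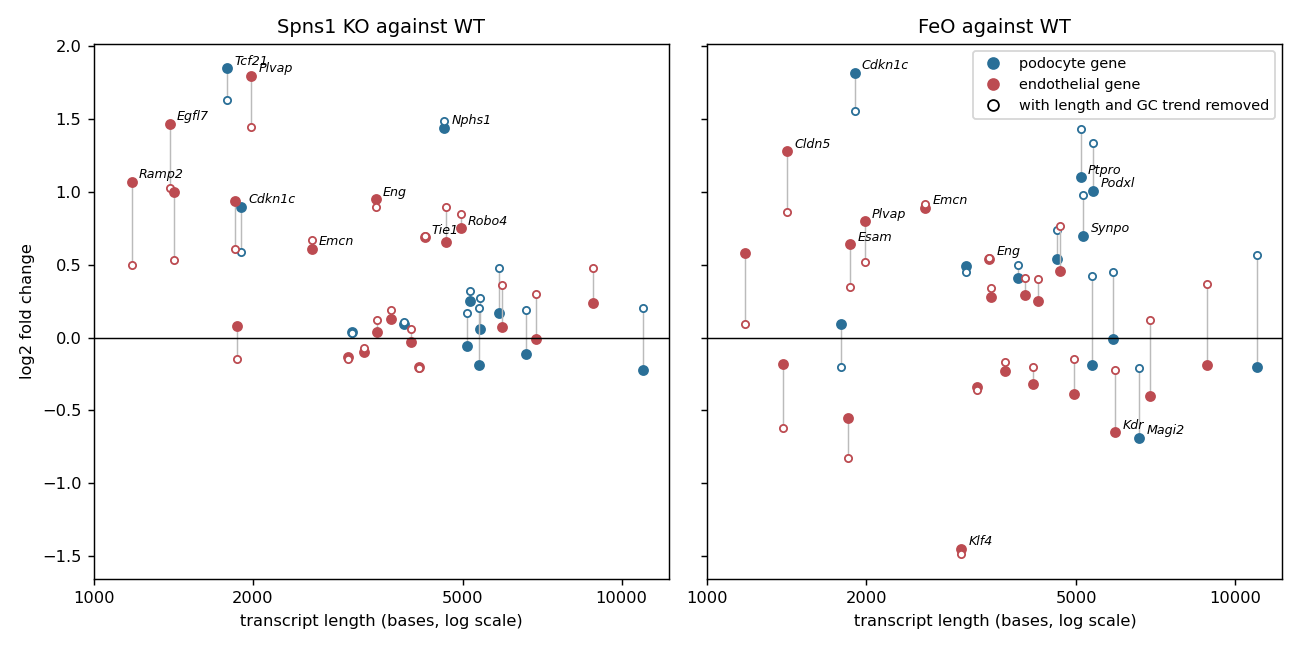
Log2 fold change of the 32 genes in Spns1 KO (left) and FeO (right) against transcript length in bases (log axis), with filled points for the values as fitted and open points, joined by a line, for the values with a trend on length and GC content removed; names mark the genes called. Ramp2, a short gene, moves in Spns1 KO from 1.07 to 0.50, Magi2, a long gene, in FeO from -0.69 to -0.21, and some longer genes hardly move, as Eng in Spns1 KO from 0.95 to 0.90.

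Other genes of the same cells were taken from lists that are not members. Of 42 further podocyte and glomerular basement membrane genes, 4 rose and 7 fell in Spns1 KO and 7 rose and 7 fell in FeO, with medians of -0.11 and 0.04 on the log2 scale. Over all tested genes 14.0% rose and 7.55% fell in Spns1 KO, and 22.4% rose and 19.7% fell in FeO. Sema3g, a semaphorin secreted by podocytes, rose by 0.90 and 1.01, and Ilk, integrin-linked kinase, by 0.54 and 0.86, in Spns1 KO and FeO respectively. Rhpn1, which takes part in organising podocyte actin, rose by 0.64 in Spns1 KO. In FeO, Arhgdia, a GTPase inhibitor that acts on the actin cytoskeleton, rose by 1.08 and Crb2, a polarity protein of the slit diaphragm, by 0.99. The fallen genes included the basement membrane collagens Col4a3 (log2 fold changes -0.76 and -0.83) and Col4a4 (-0.73 and -0.73), the junction protein Tjp1 (-0.78 and -0.89) and the cation channel Trpc6 (-0.95 and -0.99), each in Spns1 KO and FeO. Kirrel3, a nephrin-like adhesion protein, fell by 1.19 on the log2 scale in Spns1 KO, and the laminin chain gene Lama5 fell by 1.12 in FeO. Leaving out 1 library at a time ended several of these calls. In Spns1 KO the call was lost for Sema3g without Spns1 KO 1 or Spns1 KO 2 (0.85 to 0.86), Ilk without Spns1 KO 1 to 3 or WT 1 to 4 (0.44 to 0.55), Rhpn1 without Spns1 KO 1 to 3 or WT 3 to 5 (0.53 to 0.69), Col4a3 without Spns1 KO 1 to 3 or WT 2 to 5 (-0.80 to -0.64), Col4a4 without Spns1 KO 1 to 3, WT 3 or WT 4 (-0.71 to -0.58), Trpc6 without Spns1 KO 1 to 3 or WT 1 to 5 (-0.97 to -0.84) and Kirrel3 without Spns1 KO 1, Spns1 KO 2 or WT 3 (-1.10 to -1.06). The FeO call was lost for Crb2 without WT 1 to 3 or FeO 1 (0.64 to 0.92), Col4a3 without FeO 1 (-0.73) and Trpc6 without FeO 3 (-0.79), and Sema3g was 0.67 without FeO 4, still called. Collagens and laminins of this list are made by other kidney epithelia too.

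Of 71 further endothelial genes 70 could be tested (Selp could not), and 14 rose and 4 fell in Spns1 KO, whereas 8 rose and 9 fell in FeO, with medians of 0.20 and -0.02 on the log2 scale. These counts stand beside 14.0% risen and 7.55% fallen of all tested genes in Spns1 KO, and 22.4% and 19.7% in FeO. Sox18, a transcription factor of vessels, had a log2 fold change of 2.40 (SE 0.52, edgeR adjusted p = 0.00494) in Spns1 KO, where its levels were 11.97, 9.68, 8.95 and 1.53 CPM against 1.28, 1.48, 1.39, 1.45 and 2.05 CPM in WT. Spns1 KO 4 was thus far below the other Spns1 KO libraries. Esm1, the tip cell proteoglycan endocan, was 8.63, 6.38, 7.18 and 6.42 CPM in Spns1 KO and 1.66, 1.48, 1.57, 1.24 and 2.39 CPM in WT, a log2 fold change of 2.10 (SE 0.27, edgeR adjusted p = 0.000391). The growth factor gene Vegfb rose by 1.94 in Spns1 KO and 1.20 in FeO, and the surface sialomucin gene Cd34 by 1.17 and 0.70. Lpl, lipoprotein lipase, which several non-endothelial cells make, rose by 1.32 in Spns1 KO. The fallen genes in Spns1 KO were Ets2 (-0.86), Efnb2 (-0.68), Ednrb (-0.66) and Calcrl (-0.51, the receptor that pairs with Ramp2). In FeO the caveolar gene Cav1 rose by 1.25 and Tm4sf1 by 0.89. Procr, the endothelial protein C receptor, had an FeO value of 2.36 that rested on FeO 1, with 12.9, 2.53, 1.74 and 2.02 CPM in FeO 1 to 4 against 1.01, 0.832, 0.441, 0.495 and 1.93 CPM in WT, and without FeO 1 it was 1.18 and not called. The Notch ligand gene Dll4 fell in FeO, at -1.75 (SE 0.35, edgeR adjusted p = 0.00139), as did the receptor gene Notch1 at -1.01 (SE 0.27, edgeR adjusted p = 0.00704), Apold1 at -1.66 and the ETS factor genes Ets1 at -0.85 and Ets2 at -0.83. With 1 library left out at a time, the Spns1 KO call was lost for Ets2 without Spns1 KO 1 or Spns1 KO 3 (-0.79 to -0.76), Efnb2 without Spns1 KO 1, Spns1 KO 3 or WT 3 (-0.66 to -0.58), Ednrb without Spns1 KO 3 (-0.59) and Calcrl without Spns1 KO 1 to 3, WT 3, WT 4, FeO 1, FeO 2 or FeO 4 (-0.52 to -0.44), and the FeO call for Apold1 without WT 5, FeO 1 or FeO 3 (-1.50 to -1.45). Vegfb, Ets2 and Lpl are expressed well beyond endothelium.

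Markers of further cell types moved with the groups, and their part in the podocyte and endothelial values was not tested. In Spns1 KO 11 of 20 proximal tubule markers rose and 0 fell (of all tested genes 14.0% and 7.55%), and in FeO 4 rose and 3 fell (of all tested genes 22.4% and 19.7%). Their sum was 26161 to 28314 CPM in Spns1 KO, above the whole WT range, and 9573 to 30529.8 CPM in FeO. Loop of Henle and distal nephron markers rose for 5 and fell for 2 of 18 in Spns1 KO and rose for 8 in FeO. Of 15 macrophage and lymphocyte markers tested, led by Csf1r, Cd74 and Ptprc, 2 rose in Spns1 KO and 7 in FeO, with sums of 87.1 to 109.6 CPM in WT, 204 to 256 in Spns1 KO and 128 to 291 in FeO. All 5 erythroid markers, led by Hbb-bs, Hba-a2 and Hba-a1, rose in Spns1 KO and 4 in FeO, with sums of 9.396 to 36.5, 51.8 to 175 and 26.3 to 238 CPM in the same order. For 13 mesangial, smooth muscle and juxtaglomerular markers, led by Akr1b7, Cspg4 and Gata3, 1 rose and 1 fell in Spns1 KO and 3 rose and 1 fell in FeO, where FeO 1 reached a sum of 1084 CPM. Lymphatic endothelial markers, led by Prox1, Flt4 and Reln, rose for 1 of 7 in each model, with sums of 35.1 to 62.9, 36.7 to 42.9 and 45.8 to 78.2 CPM. Parietal epithelial markers, led by Pax8, Cd24a and Pax2, were called for 0 of 6 in Spns1 KO, and in FeO 1 rose and 1 fell, with sums of 529 to 693, 348 to 537 and 530.3 to 908 CPM.

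**Figure D5:**
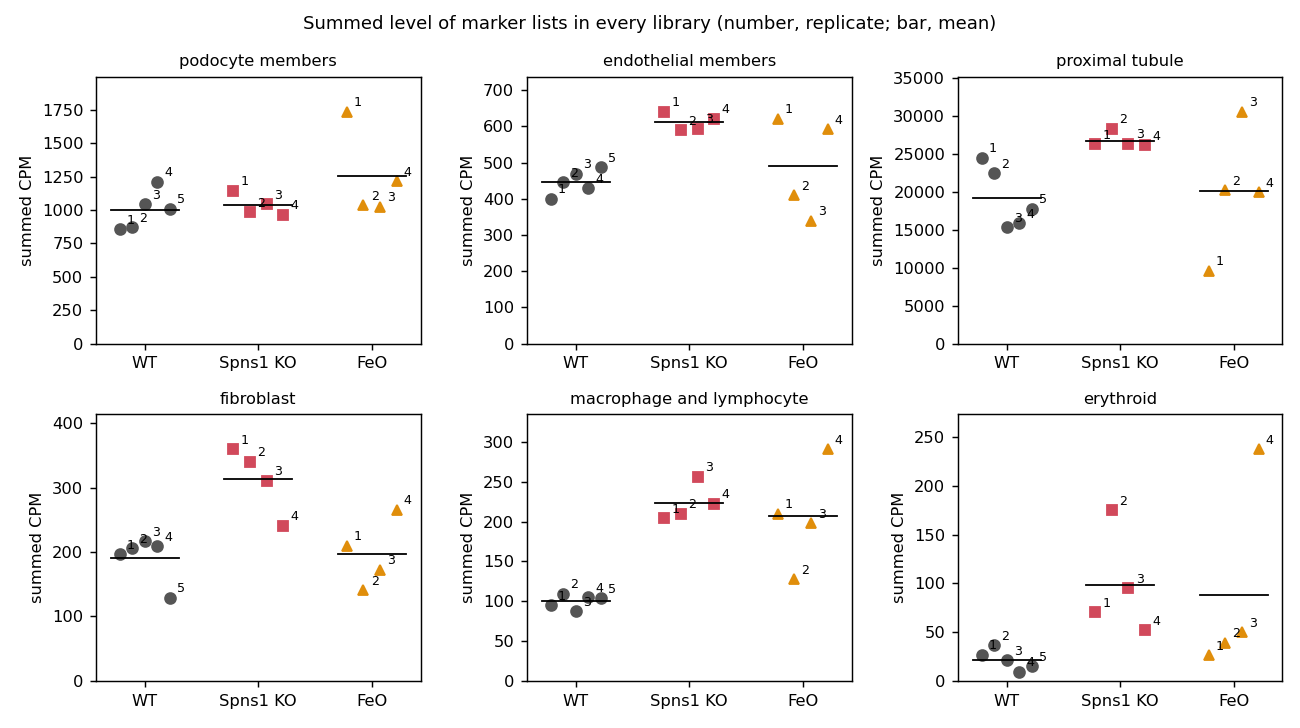
Summed CPM of 6 marker lists in every library (vertical axis from 0), by group, with the replicate number beside each point and a bar at the group mean. The endothelial sum lies at 589 to 639.9 CPM in Spns1 KO, above 400.1 to 488 in WT, while the podocyte sum overlaps between these groups and is highest in FeO 1 at 1735 CPM.

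Single FeO libraries shaped the FeO values. FeO 1 was the highest FeO library for 7 of 12 podocyte and 9 of 20 endothelial genes, and FeO 4 for 4 and 9. FeO 3 was the lowest for 7 podocyte and 17 endothelial genes. Summed over the endothelial genes FeO ran from 339 CPM (FeO 3) to 622 CPM (FeO 1), a range that held all 5 WT sums, and over the podocyte genes from 1026 CPM (FeO 3) to 1735 CPM (FeO 1). Without FeO 1 the number of podocyte genes that rose in FeO was 4, as with all libraries, while their median log2 fold change was 0.231 in place of 0.45.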

How the data were processed

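Nascent RNA from kidneys of female mice was sequenced as paired-end reads in 13 libraries, and libraries were grouped by their labels. The authors deposited an estimated count per gene symbol and library, without normalization. The submitters' notes name kallisto 0.44.0, bcl2fastq 2.19, DESeq2 and GRCm38, whereas the methods describe STAR alignment to mm10 and HTSeq counting, so the counting tool is uncertain. The counts were whole numbers, and values of 7 or more digits had been rounded to 6 significant digits.

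Here the counts were scaled with TMM factors, filtered with filterByExpr to 16468 genes and tested with the quasi-likelihood test of edgeR 4.0.16 (R 4.3.3) in a single fit of the 3 groups, and p-values were adjusted over all 16468 genes by Benjamini and Hochberg's method. A gene was called at an adjusted p under 0.05 with a log2 fold change beyond 0.5. Levels are CPM. DESeq2 1.42.0, limma 3.58.1, other scalings, no filter, a replicate block, removal of a length and GC trend (splines with 5 degrees of freedom, 98.3% of tested genes with a value) and leaving out each of the 13 libraries were alternatives. The edgeR, DESeq2 and limma-voom fits were tested on simulated counts. Gene positions, lengths and shared 31-base words came from GENCODE M21 (GRCm38) and promoters from RefSeq.

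The 32 genes and the marker lists were chosen with earlier results of these data known. All 32 are named. Of the further podocyte and endothelial genes, up to 5 per direction with the largest change among those called against WT are named, and of each other list the 3 with the highest mean in WT. P-values measure the spread between these libraries, and the range of totals from 23068023 to 71296474 sets the counting precision.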

Additional observations from a re-analysis of the deposited data

Results flagged for a closer look

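Within groups of 4 or 5 libraries, 11 of 96 gene and group pairs had 1 library far from the others by Dixon's test, where chance alone would give about 4.8, and in all 11 it was the highest library. WT 5 stood apart for 6 genes: Nphs1 at 16.4 CPM against 10.6 in the next highest WT library, and Wt1 at 17.6 against 10.6 CPM. Cdkn1c was 7.37 CPM in WT 5 against 4.68, and Ramp2 was 6.25 against 4.34 CPM. Ehd3 was 46.3 CPM against 30.3, and Esam 32.5 against 20.2 CPM in the same library. WT 4 stood apart for Magi2, at 31.2 CPM against 23.9. FeO 1 stood apart for Actn4 at 659 CPM against 354, Clic5 at 131 against 114 and Tek at 38.7 against 21.1 CPM. Spns1 KO 4 stood apart for Klf4, at 21.5 CPM against 11.6 in the next highest Spns1 KO library. Esam was called upregulated in FeO although WT 5 reached the FeO values, and Nphs1, Cdkn1c and Ramp2 were called in Spns1 KO with WT 5 included.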

How the results depend on the processing

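Of the calls against WT, 5 of 10 in Spns1 KO (Nphs1, Tcf21, Eng, Egfl7 and Plvap) and 7 of 12 in FeO (Podxl, Synpo, Cdkn1c, Ptpro, Emcn, Cldn5 and Klf4) were made under all 23 alternatives, as were 2 of 10 between Spns1 KO and FeO (Tcf21 and Robo4). No called gene changed sign, whereas 14 of 22, 7 of 20 and 4 of 22 genes not called did so under at least 1 alternative in the same order of comparisons. With library totals as the only scaling, the median over all genes in Spns1 KO moved from -0.045 to -0.177, and 1739 genes were called up and 2086 down in place of 2307 and 1243. The podocyte median was then -0.065 and the endothelial median 0.295 (0.112 and 0.472 above all genes, against 0.12 and 0.471 as reported), and 4 endothelial genes rose in Spns1 KO and 3 in FeO. With the length and GC trend removed, 0 podocyte and 1 endothelial genes fell in FeO, and Thsd7a, not called as reported, was upregulated in FeO at 0.566. The endothelial FeO median was -0.024 with limma-voom. Fitting the 8 Spns1 KO and FeO libraries alone left 4 calls between them, and over all genes 441 higher and 599 lower in place of 1113 and 1334. With WT 1 and WT 2 summed, an alternative chosen after the data were seen, 3 endothelial genes rose in FeO. Leaving out 1 library at a time gave 3 to 6 endothelial genes risen and 1 to 4 fallen in FeO, an endothelial FeO median of -0.041 to 0.246, a podocyte FeO median of 0.215 to 0.615, and 6 to 12 calls between Spns1 KO and FeO. Over all genes, the calls between Spns1 KO and FeO then ran from 545 to 1457 higher and from 636 to 1630 lower in Spns1 KO. Without Spns1 KO 4, 3003 genes were called up and 2677 down in Spns1 KO against WT. The cause of these shifts was not tested.

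Same-numbered libraries of different groups showed no clear pairing: their deviations from the group means correlated between -0.296 and 0.256, above 0.1 in 4 of 12 pairs, and the same number correlated best in 3 of 24 cases. With so few libraries per group, these correlations cannot exclude a pairing. With the replicate number as a block, 3 podocyte and 8 endothelial genes rose in Spns1 KO, and 4 podocyte and 4 endothelial genes rose in FeO. Under the block Eng and Plvap were not called in FeO and Magi2 was not called between Spns1 KO and FeO, while Cldn5 in Spns1 KO, Ramp2 in FeO, and Nphs1 and Klf2 between Spns1 KO and FeO were. Over all genes 1931 were then called up and 1057 down in Spns1 KO. The lowest count of a member in a library was 30, and the part of counting error in the spread between libraries was not tested.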

Other observations

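Set against each other, Spns1 KO and FeO also differed in further endothelial genes: of the 70 tested, 11 were higher and 4 lower in Spns1 KO, with a median log2 difference of 0.34 against 0.03 over all tested genes. Dll4, a Notch ligand of arterial and sprouting endothelium, was 5.69, 10.2, 5.28 and 12.6 CPM in Spns1 KO and 2.72, 3.73, 1.104 and 4.09 CPM in FeO, a log2 difference of 1.53 (SE 0.36, edgeR adjusted p = 0.0129). Notch1 differed by 0.99 (SE 0.28, edgeR adjusted p = 0.0279), the ETS factor gene Ets1 by 0.93 (SE 0.20, edgeR adjusted p = 0.00906) and Esm1 by 1.66 (SE 0.29, edgeR adjusted p = 0.00408). In the opposite direction, Cav1, the main protein of caveolae, differed by -1.62 (SE 0.35, edgeR adjusted p = 0.00903), Tm4sf1 by -1.04 (SE 0.21, edgeR adjusted p = 0.00719) and the endothelin receptor gene Ednrb by -0.72 (SE 0.18, edgeR adjusted p = 0.0161). Of the 42 further podocyte and basement membrane genes, 2 were higher and 3 lower in Spns1 KO than in FeO. Arhgdia was among the lower ones, at -0.59 (SE 0.18, edgeR adjusted p = 0.0419). Leaving out 1 library ended the call for Notch1 without Spns1 KO 1, Spns1 KO 4, FeO 1 or FeO 3 (0.75 to 1.01), Ednrb without Spns1 KO 1, Spns1 KO 2 or FeO 1 (-0.67 to -0.56) and Arhgdia without Spns1 KO 1, Spns1 KO 2, Spns1 KO 4, WT 1 to 3, FeO 1 or FeO 3 (-0.63 to -0.46). Over all tested genes 6.76% were higher and 8.10% lower in Spns1 KO than in FeO. Proximal tubule markers were higher in Spns1 KO for 10 of 20 and lower for 0, and the part of cell makeup in these differences was not tested.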
